A study of Rattus norvegicus with 22 samples.

Results

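Toll-like receptors are the sensors with which myeloid cells of the brain recognize microbial products and material released from damaged cells, and 9 genes of this system were followed in the rat hippocampus after traumatic brain injury (TBI): the receptors Tlr1, Tlr2, Tlr3, Tlr4, Tlr7 and Tlr9, the lipopolysaccharide co-receptors Cd14 and Ly96, and the adaptor Myd88. The genes were chosen as a list of names with earlier results of these data known, which bears on their counts below. All 9 were in the count table of 17172 genes and among the 12875 genes with enough counts to be tested. RNA-seq had been done on bulk hippocampus of the injured (right) side from adult male Sprague-Dawley rats. The TBI rats received a moderate lateral fluid percussion injury through a craniectomy on the right side. Sham rats went through the same anesthesia, craniectomy and hub placement without the percussion, so the sham groups carry the surgery too. Day 1 had 2 sham and 4 TBI animals, and day 14 had 4 of each. Each library came from a single rat, and p-values measure the spread between rats. Total counts per library ranged from 15065540 to 23743703.

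As background, the receptors differ in where they sit and what they bind. At the cell surface, TLR4 binds bacterial lipopolysaccharide with MD-2, the product of Ly96, after CD14 has handed the lipid over, and TLR2 binds lipoproteins as a pair with TLR1 or TLR6. TLR3, TLR7 and TLR9 sit in endosomes and bind double-stranded RNA, single-stranded RNA and unmethylated DNA. All of these receptors except TLR3 signal through MyD88 to NF-kappaB, and TLR4 signals through the adaptor TRIF as well. In the brain, microglia and other macrophages are the main cells that carry these receptors, and TLR3 is found in astrocytes too.

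The sequence upstream of these genes was searched for the motifs of 4 kinds of transcription factor known from myeloid and inflammatory genes, to show what the genes with the larger changes hold there. RefSeq sequence of build GRCr8 was given for 8 of the 9 genes, with Ly96 having none, and the 250 bases before the listed transcript start were searched on both strands. In Tlr1, Tlr2 and Cd14, and in part in Tlr7, these bases lie inside the span annotated to the gene, because the listed start is not the outermost one. Motif letters are in capitals, each in a window of 30 bases read along the strand of the gene:
Tlr2 NF-kappaB, chr2:171504744-171504773 (minus strand): caggcccttgGGGGAATTCCCatacggagc
Tlr4 PU.1, chr5:85161167-85161196 (plus strand): gatgaaagccagCTTCCTCttgctgttcct
Tlr9 PU.1, chr8:115743280-115743309 (plus strand): ggagagtggaaaGAGGAAGgggttgagggg
Tlr9 AP-1, chr8:115743330-115743359 (plus strand): gcaaatgacgtgTGACTCAttgtaccacct
Cd14 PU.1, chr18:28611281-28611310 (minus strand): tagggttgttagGAGGAAGagaagtgggga
Cd14 PU.1, chr18:28611246-28611275 (minus strand): gttgagttcacaGAGGAAGggacagggtga
Myd88 AP-1, chr8:127956421-127956450 (minus strand): cctaaacaaggcTGAATCActtcaccacgc
Myd88 ISRE, chr8:127956231-127956260 (minus strand): ggcggagcttctcgGAAAGCGAAAggagga

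The NF-kappaB motif was searched by its consensus, and the capitals of Tlr2 hold 2 overlapping matches to it. It was present in 3.54% of 33469 promoters of the same length. GAGGAAG, the core of the site of the myeloid factor PU.1, was present in 10.2% of them and in Tlr4, Tlr9 and Cd14. TGANTCA, the AP-1 motif, was present in 6.34% and in Tlr9 and Myd88. The interferon-stimulated response element (ISRE), searched by its consensus too, was present in 3.41% and in Myd88, and its matches did not overlap those of the other motifs in these genes. The windows of Tlr1, Tlr3 and Tlr7 held none of these letters. A match describes the sequence and does not show a bound site.

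Other cell types moved with the groups, and their levels stand here once for all results below. The summed level of 12 microglial markers (CPM, counts scaled to the library size with TMM factors) ranged from 517 to 845 among the sham rats and from 1020 to 1330 among the TBI rats of day 1. Among the sham rats of day 14 it ranged from 618 to 787, and among the TBI rats from 1393 to 2432. At day 1, 5 of these 12 were higher and 2, P2ry12 and Tmem119, lower in TBI, and at day 14 11 of 12 were higher. Markers of perivascular macrophages summed to 8.11 to 13.4 CPM in sham and 37.3 to 64.7 CPM in TBI at day 1 (3 of 4 higher), against 5.18 to 9.42 and 6.43 to 14.5 CPM at day 14 (0 of 4). Neutrophil markers summed to 1.11 to 1.72 and 11.4 to 49.0 CPM at day 1 (3 of 5 tested of 9 were higher), against 0.433 to 1.58 and 1.23 to 1.90 CPM at day 14, and the granule genes Mpo and Elane had at most 2 and 16 counts in any TBI library of day 1. Monocyte markers summed to 153 to 196 and 332 to 732 CPM at day 1 (3 of 5), and to 171 to 224 and 245 to 339 CPM at day 14 (1 of 5). Nearly all of the monocyte sum came from Chi3l1 (93.8 to 135 and 211 to 645 CPM at day 1) and Vcan (58.3 to 60.0 and 70.6 to 113 CPM). Plac8, Fcnb and Ms4a7 reached at most 3.63, 5.44 and 1.01 CPM in the TBI rats of day 1. Of 8 neuronal markers, 4 were lower after injury at day 1, with sums of 6005 to 9136 CPM in sham and 2206 to 5525 CPM in TBI, while at day 14 these were 5290 to 6729 and 4427 to 5717 CPM (0 of 8). For oligodendrocytes the sums were 10528 to 14580 and 4070 to 15514 CPM at day 1 (2 of 6 lower) and 14664 to 23787 and 10546 to 18868 CPM at day 14 (0 of 6). Astrocyte markers, among which 1 of 6 was called higher at each day, summed to 3676 to 5532 and 10208 to 16209 CPM at day 1 and to 3315 to 4331 and 6781 to 10515 CPM at day 14. In bulk tissue, fewer or more cells of a type and less or more RNA per cell cannot be told apart. Markers of choroid plexus, tissue that can be taken along with hippocampus, summed to 8684 CPM in sham day 1 replicate 1, 1540 CPM in TBI day 14 replicate 2 and 7617 CPM in TBI day 14 replicate 3, and to 8.99 to 25.0 CPM in the other 11 libraries. Their part in the differences was not tested, and each comparison was also run without these 3 libraries.

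**Figure D1:**
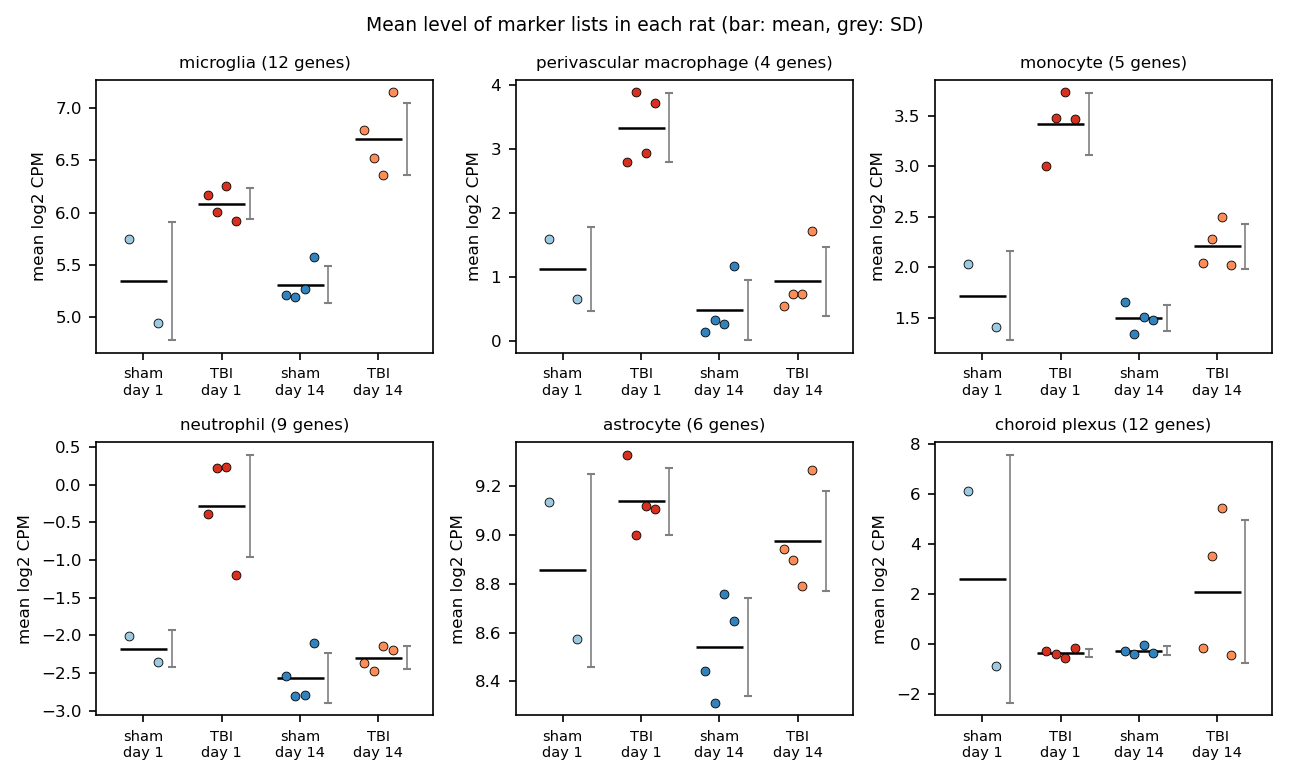
Mean log2 CPM of marker lists for 6 cell types in each rat, by group, with the group mean (bar) and SD (grey). Microglial markers were highest in TBI day 14, perivascular macrophage, monocyte and neutrophil markers in TBI day 1, and choroid plexus markers stood out in 3 rats.

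At both days, 6 of the 9 genes were higher in TBI than in time-point–matched sham and 0 were lower, but not the same 6. At day 1 the DEGs were Cd14, Tlr1, Tlr2, Tlr4, Tlr7 and Myd88, against 11.2% of all tested genes called higher and 7.93% called lower. At day 14 they were Cd14, Tlr2, Tlr3, Tlr4, Tlr7 and Myd88, against 4.07% called higher and 0.365% called lower. Over the 9 genes the median log2 fold change stood at 1.58 (day 1) and 1.39 (day 14), beside −0.02 and −0.03 for all tested genes. None of the 9 was lower at an unadjusted p under 0.05 either, and limma-voom and DESeq2 also gave 0 lower at both days. DEGs are genes with a Benjamini-Hochberg adjusted p under 0.05 over all tested genes in edgeR's two-sided quasi-likelihood test. The effect of TBI itself differed between the days for 3 of the 9: it was larger at day 1 for Cd14 and Tlr1 and larger at day 14 for Tlr3, against 2.24% and 1.44% of all tested genes. Of these, Tlr1 and Tlr3 missed the threshold by limma-voom (adjusted p = 0.0521 and 0.0659) and in other alternatives given below. At day 1, the libraries of TBI all lay above those of sham for 7 genes (16.7% of all tested genes), the 6 DEGs and Ly96, and at day 14 for the 6 DEGs (9.13%). They lay below sham for 0 of the 9 at either day, where 14.1% and 5.86% of all tested genes did. Day 1 rests on 2 sham rats: without replicate 2 of that group, 3 of the 9 genes were called (Cd14, Tlr1 and Myd88), beside 4.37% of all tested genes called higher, in a fit where the remaining sham rat is assumed to vary like the other groups.

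**Figure D2:**
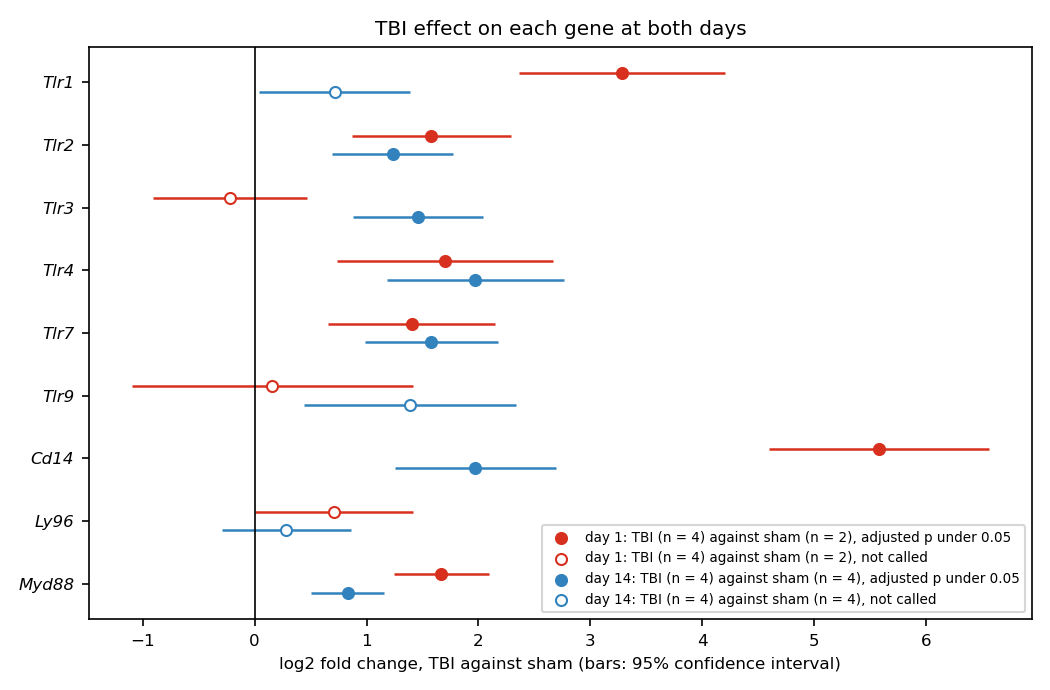
Log2 fold change of each gene in TBI against the sham group of the same day, with 95% confidence intervals from edgeR. Filled points have an adjusted p under 0.05. Cd14 at day 1 stood at 5.58, and Tlr1 and Cd14 had their larger effect at day 1 while Tlr3 had it at day 14. The differences between the days for Tlr1 and Tlr3 missed the threshold in some alternatives.

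Cd14, which encodes the co-receptor that delivers lipopolysaccharide to TLR4, showed the largest change of the 9 at day 1. Its level was 1.02 and 0.599 CPM in the sham rats of day 1 (19 and 13 counts). In the TBI rats of day 1 it was 43.0, 40.4, 37.9 and 33.4 CPM (746 to 995 counts). All 4 TBI rats lay far above both sham rats and close to each other. The log2 fold change was 5.58 (SE 0.46, edgeR adjusted p = 5.63e-06), a 47.8-fold difference with a 95% interval of 24.1 to 94.6, and it ranked 56 from the top among all tested genes. At day 14, sham rats had 1.05, 0.240, 1.24 and 0.708 CPM (4 to 23 counts) and TBI rats 3.05, 1.99, 3.93 and 3.80 CPM (34 to 79 counts). The groups again did not overlap, at a level far below that of day 1. By edgeR the log2 fold change was 1.97 (SE 0.34, edgeR adjusted p = 0.00204), or 3.92-fold. The effect was larger at day 1 by 3.61 on the log2 scale (SE 0.55, edgeR adjusted p = 0.00333), and Cd14 fell between the TBI groups of the 2 days by 3.59 (edgeR adjusted p = 1.6e-06). Its order was therefore TBI day 1, TBI day 14 and then both sham groups, whose means of 0.812 ± 0.300 (SD, n = 2) and 0.810 ± 0.440 CPM (n = 4) differed by less than the spread between rats. These calls held in every alternative in which Cd14 was tested.

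Ly96 encodes MD-2, the partner of TLR4 that holds the lipid, and was not called at either day. Sham rats of day 1 had 2.59 and 2.58 CPM (48 and 56 counts) and TBI rats 4.05, 3.53, 5.13 and 4.21 CPM (78 to 112 counts). The 4 TBI rats lay above both sham rats, with a log2 fold change of 0.71 (SE 0.33, edgeR adjusted p = 0.143, 95% interval 0.0057 to 1.41). Against sham day 14, or against all 6 sham rats as 1 group, the same TBI rats gave 0.86 and 0.81 (edgeR adjusted p = 0.0159 and 0.0161). In these 2 fits 25% and 18.1% of all tested genes were higher, and day differs along with injury, in the second only in part. At day 14, sham rats had 3.34, 1.80, 2.22 and 1.96 CPM and TBI rats 2.06, 3.10, 2.19 and 3.96 CPM (30 to 75 counts in all 8). These groups overlapped (0.28, SE 0.27, edgeR adjusted p = 0.79, 95% interval −0.29 to 0.86). Cd14 and Ly96, whose proteins act on the same receptor, thus had intervals that did not overlap at either day: 4.59 to 6.56 against 0.0057 to 1.41 at day 1, and 1.25 to 2.69 against −0.29 to 0.86 at day 14. The difference between the 2 genes was not tested.

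**Figure D3:**
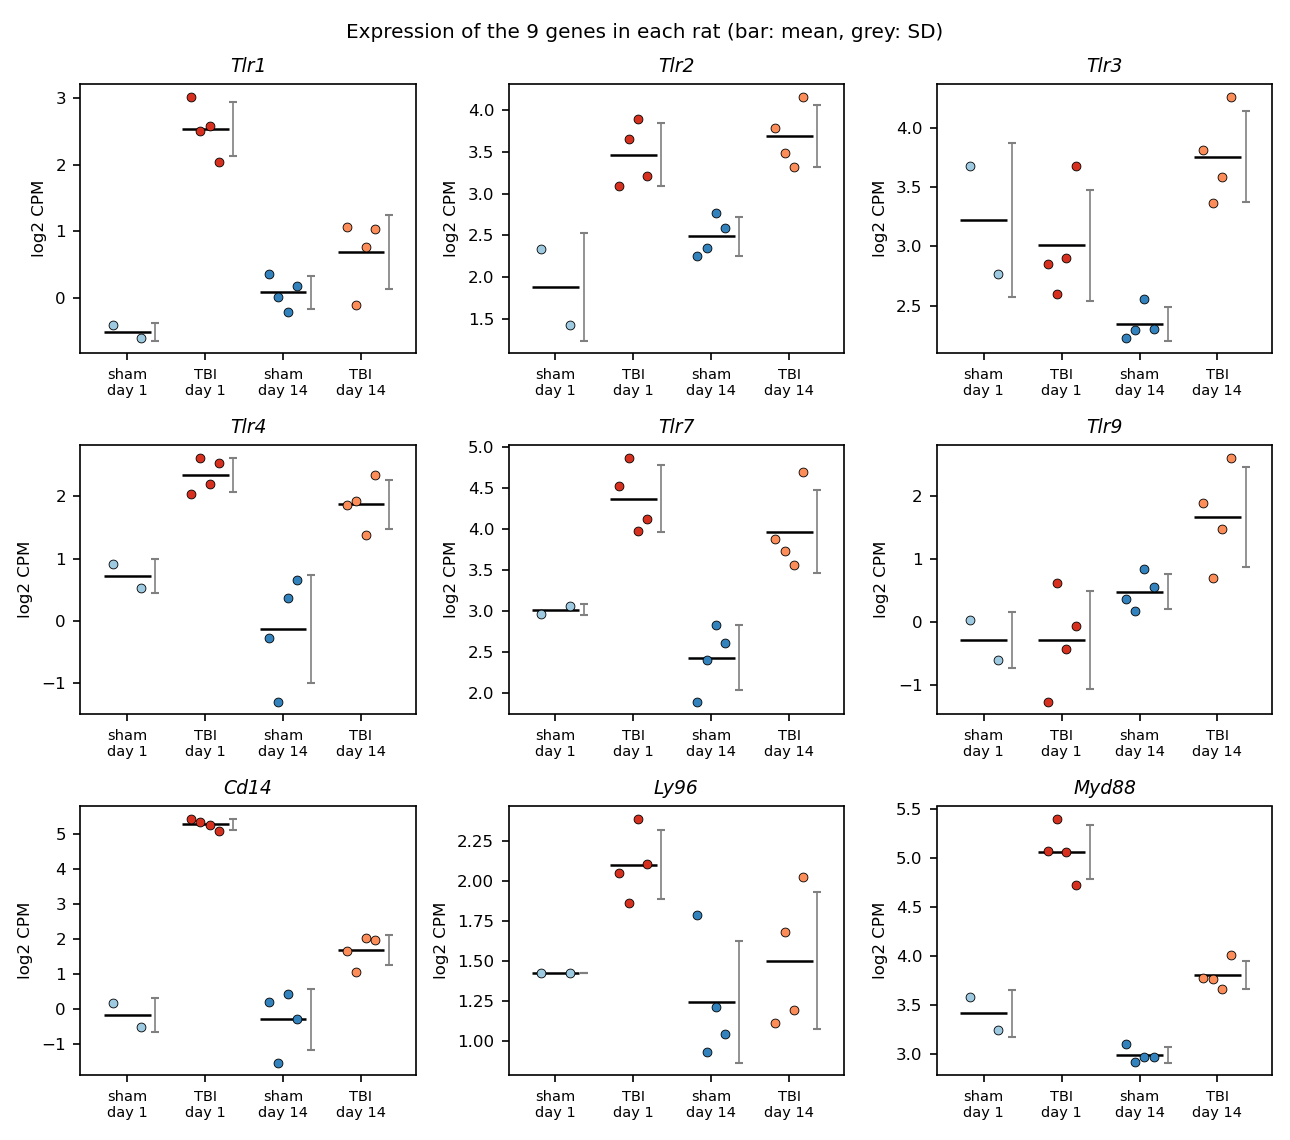
Log2 CPM of each of the 9 genes in each rat (points), by group, with the group mean (bar) and SD (grey). TBI day 1 held the highest levels of Cd14, Tlr1 and Myd88, TBI day 14 those of Tlr3 and Tlr9, and both TBI groups lay above their sham groups for Tlr2, Tlr4 and Tlr7.

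Of the cell-surface receptors, Tlr4 and Tlr2 were DEGs at both days and Tlr1 at day 1. Tlr4, the lipopolysaccharide receptor, had 1.78 and 1.34 CPM in sham and 3.99, 6.01, 4.49 and 5.73 CPM in TBI at day 1 (29 to 33 and 77 to 148 counts). At day 14 it had 0.721, 0.300, 1.19 and 1.47 CPM in sham and 3.52, 3.69, 2.48 and 4.96 CPM in TBI (5 to 27 and 50 to 94 counts). All TBI rats lay above all sham rats at both days, and the lowest level was that of sham day 14 replicate 2. The difference between TBI and sham was 1.70 on the log2 scale at day 1 (SE 0.45, edgeR adjusted p = 0.0174) and 1.97 at day 14 (SE 0.37, edgeR adjusted p = 0.0044). Its effects at the 2 days were not found to differ (difference −0.27, 95% interval −1.46 to 0.92, edgeR adjusted p = 0.826), and neither were the TBI groups (edgeR adjusted p = 0.286) or the sham groups (edgeR adjusted p = 0.26). The day 1 call was lost without sham day 1 replicate 2 (edgeR adjusted p = 0.156) and without the 3 libraries high in choroid plexus markers (edgeR adjusted p = 0.0516), with log2 fold changes of 1.51 and 1.90.

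Tlr2, the receptor for lipoproteins, had 4.96 and 2.58 CPM in sham and 8.40, 12.5, 14.8 and 9.18 CPM in TBI at day 1 (56 to 92 and 162 to 323 counts). At day 14 it had 4.65, 4.99, 6.71 and 5.93 CPM in sham and 13.7, 11.1, 9.89 and 17.8 CPM in TBI (71 to 124 and 189 to 337 counts). The groups did not overlap at either day. The 2 TBI groups, with means of 11.2 ± 2.97 and 13.1 ± 3.50 CPM (SD, n = 4 each), were not found to differ (edgeR adjusted p = 0.496). On the log2 scale the fold change was 1.58 at day 1 (SE 0.33, edgeR adjusted p = 0.00476) and 1.23 at day 14 (SE 0.25, edgeR adjusted p = 0.00846), with a difference of 0.35 (95% interval −0.52 to 1.21, edgeR adjusted p = 0.674). At day 1 the call was lost without sham day 1 replicate 2, the lower of the 2 sham rats (log2 fold change 1.18, edgeR adjusted p = 0.0887), and with the 6 rats of that day alone in the fit (1.60, edgeR adjusted p = 0.0528).

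Tlr1, a partner of TLR2, had 0.647 and 0.553 CPM in sham (12 counts in each rat) and 8.04, 5.60, 5.87 and 4.03 CPM in TBI at day 1 (90 to 155 counts). At day 14 it had 1.18, 0.901, 0.757 and 1.03 CPM in sham and 1.99, 0.820, 1.59 and 1.95 CPM in TBI (14 to 19 and 14 to 37 counts). The groups were far apart at day 1 and overlapped at day 14 through TBI replicate 2. TBI rats were higher than sham by 3.28 on the log2 scale at day 1 (SE 0.43, edgeR adjusted p = 0.000146), or 9.73-fold, and 0.71 at day 14 (SE 0.32, edgeR adjusted p = 0.34, 95% interval 0.035 to 1.39). The effect was larger at day 1 by 2.57 (SE 0.52, edgeR adjusted p = 0.0146). That difference missed the threshold without sham day 1 replicate 2 (2.46, edgeR adjusted p = 0.0633), without the 3 libraries high in choroid plexus markers (2.34, edgeR adjusted p = 0.076), with the choroid plexus markers as a covariate (2.32, edgeR adjusted p = 0.0873) and by limma-voom (2.55, adjusted p = 0.0521). From TBI day 1 to TBI day 14 the level fell by 1.88 on the log2 scale (edgeR adjusted p = 0.000227). Tlr1 and Tlr6 are close in sequence, so how reads were shared between them is uncertain.

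Of the endosomal receptors, Tlr7 was a DEG at both days, Tlr3 at day 14 and Tlr9 at neither. Tlr7, the receptor for single-stranded RNA, had 7.71 and 8.25 CPM in sham and 22.8, 29.0, 15.6 and 17.2 CPM in TBI at day 1 (143 to 179 and 341 to 715 counts). At day 14 it had 3.60, 5.17, 6.98 and 5.99 CPM in sham and 14.6, 13.2, 11.6 and 25.8 CPM in TBI (55 to 129 and 220 to 489 counts). All TBI rats lay above all sham rats at both days. The log2 fold change was 1.41 at day 1 (SE 0.35, edgeR adjusted p = 0.0121) and 1.58 at day 14 (SE 0.28, edgeR adjusted p = 0.00262), with a difference of −0.17 (95% interval −1.09 to 0.74, edgeR adjusted p = 0.856). The day 1 call was lost without sham day 1 replicate 1 or 2 (1.36 and 1.46, edgeR adjusted p = 0.0528 and 0.0866) and without the 3 libraries high in choroid plexus markers (1.35, edgeR adjusted p = 0.0545).

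Tlr3, the receptor for double-stranded RNA and the one of the 6 receptors that does not use MyD88, was a DEG at day 14 and not at day 1. At day 1 it had 12.7 and 6.69 CPM in sham and 7.11, 5.97, 7.38 and 12.7 CPM in TBI (145 to 236 and 137 to 284 counts). These groups overlapped fully, since the high sham rat, replicate 1, matched the high TBI rat, replicate 4 (−0.22, SE 0.32, edgeR adjusted p = 0.659, 95% interval −0.91 to 0.46). That sham rat was also the library with 8684 CPM of choroid plexus markers, whose part in its Tlr3 level was not tested. Without sham day 1 replicate 1 the sign turned (0.31), and against sham day 14 the same TBI rats were higher by 0.73 (edgeR adjusted p = 0.0402). In that last comparison day differs along with injury, and 25% of all tested genes were higher. At day 14 Tlr3 had 4.59, 4.81, 5.79 and 4.84 CPM in sham and 13.9, 10.2, 11.9 and 19.1 CPM in TBI (70 to 107 and 174 to 362 counts). The lowest TBI rat stood well above the highest sham rat, with a log2 fold change of 1.46 (SE 0.27, edgeR adjusted p = 0.00427). Astrocytes are also known to carry TLR3. Their summed marker level was higher in TBI at both days, largely through Gfap, with 1 of 6 markers called higher at each day. In addition, 4 of 8 neuronal markers were lower at day 1 (values above). The part of either cell type in the levels of Tlr3 was not tested. The effect at day 1 minus that at day 14 was −1.68 (SE 0.42, edgeR adjusted p = 0.0375). This difference holds that between the sham groups, where the 2 sham rats of day 1 were higher by 0.95 (edgeR adjusted p = 0.0515). It also holds that between the TBI groups, where day 14 was higher by 0.73. By limma-voom (−1.62, adjusted p = 0.0659) and with the choroid plexus markers as a covariate (−1.59, edgeR adjusted p = 0.132) the difference between the effects was not called. Without the 3 libraries high in choroid plexus markers, which leaves 1 sham rat at day 1, the difference was −1.45. This difference missed the threshold in 8 of the 14 fits that left out 1 rat. These were the fits without sham day 1 replicate 1 (−1.15, edgeR adjusted p = 0.144), TBI day 1 replicate 2 or 3, sham day 14 replicate 1, 2 or 4 and TBI day 14 replicate 1 or 4, with values of −1.68 to −1.48 and adjusted p of 0.0611 to 0.0795 for the last 7. Between the TBI groups Tlr3 was higher at day 14 by 0.73 (edgeR adjusted p = 0.0391), and that call was lost without TBI day 1 replicate 1, 2 or 3, sham day 14 replicate 2, or TBI day 14 replicate 1 or 4 (0.53 to 0.73, edgeR adjusted p = 0.0507 to 0.143).

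Tlr9, the receptor for unmethylated DNA, had few counts. At day 1 it had 0.916 and 0.553 CPM in sham and 0.311, 1.42, 0.642 and 0.851 CPM in TBI (12 to 17 and 6 to 35 counts). A difference was not detectable at this depth (0.16, SE 0.59, edgeR adjusted p = 0.874, 95% interval −1.10 to 1.42), and its sign turned without TBI day 1 replicate 2 (−0.26) or sham day 1 replicate 2 (−0.16). At day 14 Tlr9 had 1.18, 1.02, 1.68 and 1.36 CPM in sham and 3.58, 1.52, 2.68 and 5.97 CPM in TBI (17 to 31 and 26 to 113 counts). Of the 4 TBI rats, 3 lay above all sham rats, and TBI replicate 2 lay within them. The log2 fold change of 1.39 (SE 0.44, edgeR adjusted p = 0.118, 95% interval 0.44 to 2.33) missed the threshold. It passed with DESeq2 (adjusted p = 0.0474), with the 8 rats of that day alone (edgeR adjusted p = 0.0381), with all 6 sham rats as 1 group (edgeR adjusted p = 0.0331) and without the 3 libraries high in choroid plexus markers (1.88, edgeR adjusted p = 0.0332). Between the TBI groups Tlr9 rose from day 1 to day 14 by 2.07 (SE 0.45, edgeR adjusted p = 0.00251), or 4.19-fold, with all 4 rats of day 14 above all 4 of day 1.

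Myd88, the adaptor that links most of these receptors to the IRAK kinases, was a DEG at both days. At day 1 it had 11.9 and 9.36 CPM in sham and 33.4, 42.1, 33.1 and 26.2 CPM in TBI (203 to 220 and 585 to 1036 counts). At day 14 it had 8.46, 7.45, 7.68 and 7.67 CPM in sham and 13.5, 13.5, 12.6 and 16.0 CPM in TBI (124 to 142 and 204 to 303 counts). The groups were apart at both days, and the sham rats of day 14 lay close together. By edgeR the log2 fold change was 1.67 at day 1 (SE 0.20, edgeR adjusted p = 6.18e-05) and 0.83 at day 14 (SE 0.15, edgeR adjusted p = 0.00416), or 3.18-fold and 1.78-fold. The difference between the days of 0.84 missed the threshold (SE 0.24, edgeR adjusted p = 0.0711, 95% interval 0.32 to 1.36), and passed it without TBI day 1 replicate 4 (0.94, edgeR adjusted p = 0.0302) and with DESeq2 (0.83, adjusted p = 0.0281). Between the TBI groups Myd88 fell by 1.28 (SE 0.15, edgeR adjusted p = 2.54e-05).

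Set side by side without the sham groups, the injured hippocampus at day 14 had lower levels of 3 genes than at day 1 (Cd14, Tlr1 and Myd88) and higher levels of 2 (Tlr3 and Tlr9), against 21.9% and 17.6% of all tested genes. For a list of 9 genes, both counts are near those shares and are not read as a trait of the list. Tlr2, Tlr4, Tlr7 and Ly96 were not called, with log2 differences of 0.23, −0.47, −0.38 and −0.58. Without TBI day 14 replicate 4, which had the highest level of Tlr2, Tlr3, Tlr4, Tlr7, Tlr9, Ly96 and Myd88 in its group and the highest level of the microglial markers, Tlr7 and Ly96 were lower as well (−0.69 and −0.79, edgeR adjusted p = 0.0412 and 0.0414). Of the 9 genes, 0 differed between the sham groups by edgeR, where 11.3% of all tested genes were higher and 7.88% lower in sham day 1. At an unadjusted p under 0.05, 2 were higher in sham day 1: Tlr3 by 0.95 (edgeR adjusted p = 0.0515) and Myd88 by 0.44 (edgeR adjusted p = 0.109). With limma-voom 0 were called, and with DESeq2 1 (Tlr3, adjusted p = 0.0314).

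Since microglial markers moved with the groups, the level of each gene was also expressed relative to the mean log2 CPM of the 12 microglial markers in the same rat, as a description without a test. On this scale the median over all tested genes moved by −0.77 at day 1 and −1.42 at day 14 between TBI and sham. At day 1, 5 genes were above sham in all TBI rats (Cd14, Tlr1, Tlr2, Tlr4 and Myd88), against 5.44% of all tested genes, and Tlr3 was below (45.8%). At day 14, 0 genes were above (0.839%) and 4 were below (Tlr1, Tlr2, Ly96 and Myd88, against 89% of all genes). The largest difference on this scale was that of Cd14 at day 1: relative to the markers it lay at −5.57 and −5.45 in sham and between −1.01 and −0.66 in TBI, a difference of 4.69. At day 14 the difference for Cd14 was 0.58, and the groups overlapped. Tlr1 differed by 2.31 at day 1 and −0.79 at day 14, Tlr4 by 0.89 and 0.62, Tlr7 by 0.61 and 0.14, and Tlr3 by −0.96 and 0.01. The level of Tlr2 relative to the markers was nearly the same in the 4 TBI rats of day 14, from −3.04 to −2.99. P2ry12 and Tmem119 were themselves lower in TBI at day 1, and without them in the list 3 genes were above sham at day 1 (Cd14, Tlr1 and Myd88, 3.37%) and 2 below (Tlr3 and Tlr9, 73.9%). At day 14 this shorter list left 0 above (0.668%) and the same 4 below (91%).

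**Figure D4:**
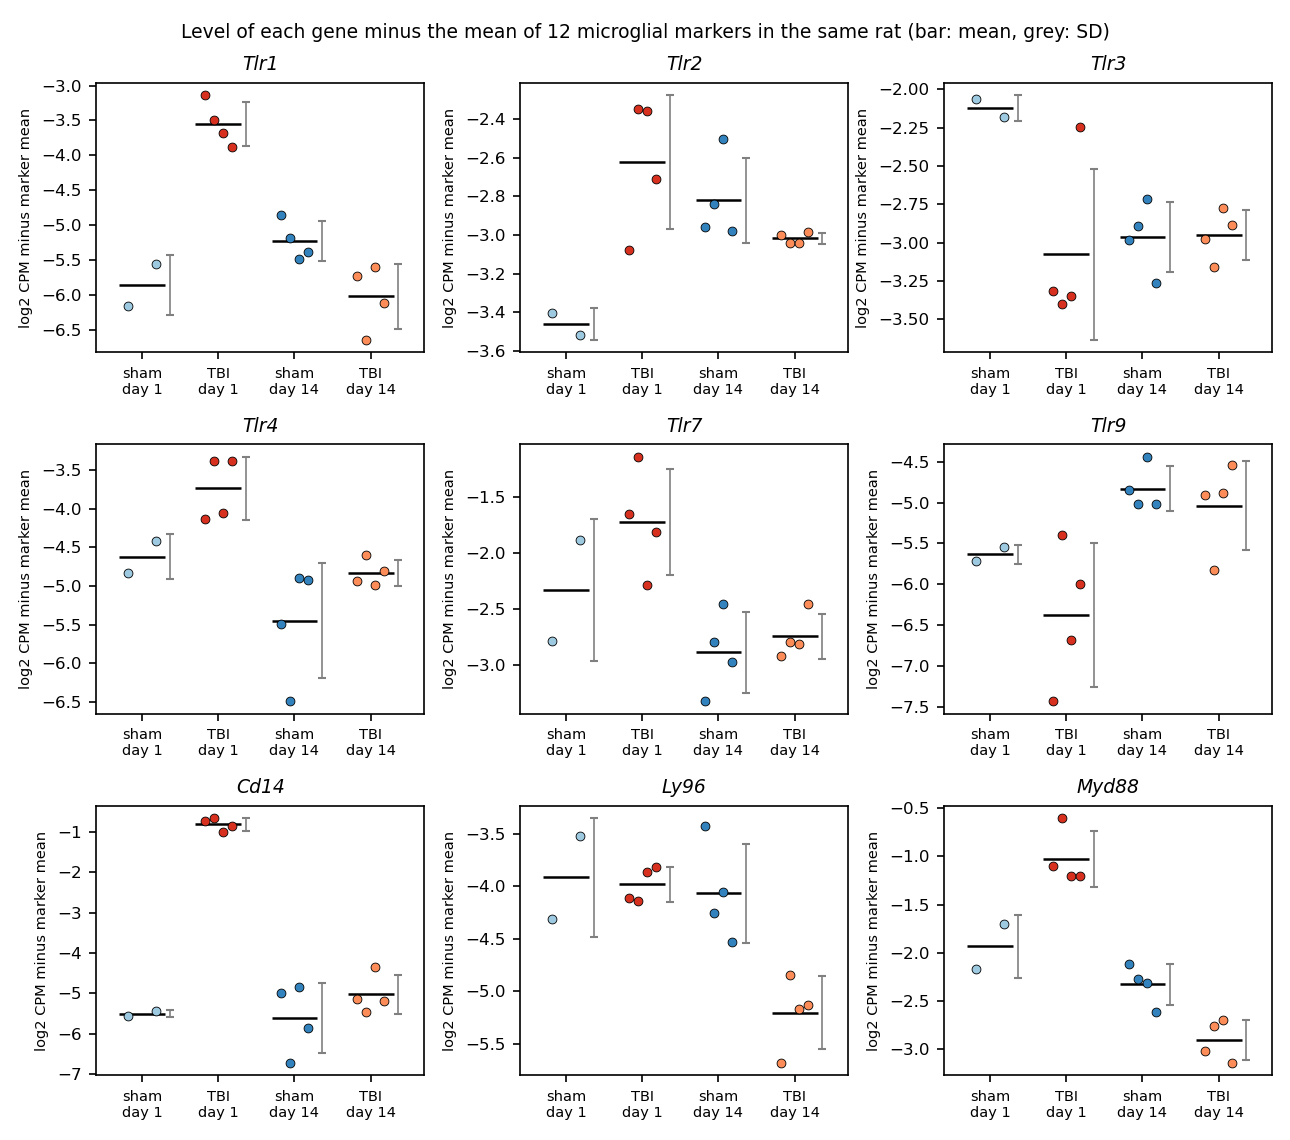
Log2 CPM of each gene minus the mean log2 CPM of 12 microglial markers in the same rat, by group, with the group mean (bar) and SD (grey). For Cd14 the TBI rats of day 1 lay between −1.01 and −0.66, and at day 14 none of the 9 genes was above sham in all TBI rats.

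The rest of the pathway was read from lists arranged by role, with 55 genes tested of the 61 in the table. At day 1, 21 were higher and 0 lower (11.2% and 7.93% of all genes), and their median log2 fold change, 0.62, stood beside −0.02 for all genes. At day 14, 11 were higher and 0 lower (4.07% and 0.365%), with a median of 0.26 beside −0.03. At an unadjusted p under 0.05, 1 gene was lower at each day, while limma-voom called 0 lower at both days and DESeq2 called 0 at day 1 and 1 at day 14. Of the other Toll-like receptors, 4 of 5 tested were higher at day 1 and 3 of 5 at day 14. By the rule of size, these were Cd180, a TLR4 homolog without a signaling domain (1.45 at day 1 and 1.89 at day 14, edgeR adjusted p = 0.00333 and 0.000127), and Tlr6, a partner of TLR2 (1.16 at day 1, edgeR adjusted p = 0.015). Others, named after their values were seen, were Tlr8 (4.33 and 3.83, edgeR adjusted p = 0.002 and 0.00862), Tlr10 at day 1 and Tlr5 at day 14. Tlr8 had 3 to 10 counts in sham and 51 to 210 in TBI at day 1. At day 14 it had 0 to 4 counts in sham and 12 to 37 in TBI, so the size of its folds rests on few sham counts. Tlr10 had 2 counts in each sham rat of day 1 and 17 to 35 in the TBI rats, 6.97-fold more with sham set at 3 counts. It had 0 counts in all TBI rats of day 14. Tlr5 had at most 1 count in any sham rat of day 14 and 4 to 16 counts in the TBI rats, 3.2-fold more with sham set at 3 counts. Such folds divide the mean level of the TBI rats by that of sham libraries set at 3 counts each. They are not confidence limits and leave out the spread between rats.

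Among co-receptors and trafficking genes, 4 of 8 were higher at day 1 and 3 of 8 at day 14, beside 11.2% and 4.07% of all tested genes. Ly86, which encodes MD-1, the partner of CD180, had log2 fold changes of 2.57 and 1.84 (edgeR adjusted p = 4.08e-05 and 0.000107). Unc93b1, the chaperone that carries the endosomal receptors, had 1.29 and 2.26 (edgeR adjusted p = 0.00418 and 1.59e-05): its level was 9.82 to 16.8 CPM in sham and 26.0 to 40.0 CPM in TBI at day 1, and 11.3 to 16.2 and 49.6 to 81.0 CPM at day 14. Slc15a3, an endosomal transporter of TLR and NOD ligands, had 0.89 and 0.75 (edgeR adjusted p = 0.0255 and 0.0468). Cd36, a scavenger receptor that works with TLR2, had at most 1 count in either sham rat of day 1 and 38 to 170 counts in the TBI rats. This was 35.3-fold more with sham set at 3 counts, and Cd36 was named after its values were seen. Lbp, the serum protein that loads CD14, was not called at either day. It had 1 and 78 counts in the sham rats of day 1 and 37 to 591 in the TBI rats. The 78 counts were in sham day 1 replicate 1, a library high in choroid plexus markers, whose part in this level was not tested. At day 14 Lbp had 1 to 6 counts in sham and 5 to 23 in TBI.

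Downstream of the receptors, 0 of 2 other TIR adaptors were called at either day by edgeR, and 1 was higher at day 14 at an unadjusted p under 0.05. Of 14 kinases and ubiquitin ligases, 2 were higher at day 1, a share near the 11.2% of all tested genes: Irak4 (0.86, edgeR adjusted p = 0.00576) and Irak2 (0.85, edgeR adjusted p = 0.042). At day 14 edgeR called 0 of them, and at an unadjusted p under 0.05 it had 3 higher and 1 lower at either day. Of 7 inhibitors, 2 were higher at day 1, Sigirr (1.18, edgeR adjusted p = 0.0332) and Irak3 (1.00, edgeR adjusted p = 0.0273), and 1 at day 14, Il1rl1 (1.64, edgeR adjusted p = 0.00461). For this list and the transcription factors, the shares of all tested genes called higher were 11.2% at day 1 and 4.07% at day 14. Of 6 transcription factors, Nfkb2 (1.29, edgeR adjusted p = 0.00242) and Rela (0.69, edgeR adjusted p = 0.0123) were higher at day 1. At day 14 the transcription factors that were higher were Irf7 (1.47, edgeR adjusted p = 0.00766) and Irf5 (1.14, edgeR adjusted p = 0.000721), which act below the endosomal receptors, and Nfkb2 (0.84, edgeR adjusted p = 0.0169).

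Of 6 endogenous ligands tested, 3 were higher at day 1 and 0 at day 14, beside 11.2% and 4.07% of all tested genes. At an unadjusted p under 0.05, 1 ligand was higher at day 14. S100a9, a subunit of the TLR4 ligand calprotectin that is also a neutrophil marker, had 0.323 to 0.485 CPM in sham and 5.60 to 22.8 CPM in TBI at day 1 (5.32, edgeR adjusted p = 7.72e-05), and Tnc, a matrix protein, had a log2 fold change of 1.30 (edgeR adjusted p = 0.0129). The third was S100a8 (5.31, edgeR adjusted p = 0.000834), named after its values were seen. Of 7 target cytokines and mediators, 4 were higher at day 1 (11.2% of all tested genes): Cxcl10 (4.55, edgeR adjusted p = 0.0469), Tnf (2.83, edgeR adjusted p = 0.000366), Icam1 (2.08, edgeR adjusted p = 0.00028) and Il1b. Il1b had 1 count in each sham rat and 62 to 224 in the TBI rats, 38.1-fold more with sham set at 3 counts. It was named after its values were seen. Cxcl10 was uneven among the TBI rats of day 1, from 1.21 to 24.8 CPM. At day 14, 1 of the 7 was higher, beside 4.07% of all tested genes: Icam1, the adhesion molecule (1.28, edgeR adjusted p = 0.0025). At an unadjusted p under 0.05, 3 of the 7 were higher at that day. Cxcl10 was not called at day 14, with 0.327 to 0.655 CPM in sham and 1.84 to 12.2 CPM in TBI. Its effects at the 2 days were not found to differ (edgeR adjusted p = 0.741). Il1b, not called at day 14 either, had 3 to 5 counts in sham and 9 to 16 in TBI. Without sham day 1 replicate 2, 8 of the 55 genes were called higher at day 1, beside 4.37% of all tested genes, and with the 6 rats of that day alone 13 were, beside 4.28%.

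**Figure D5:**
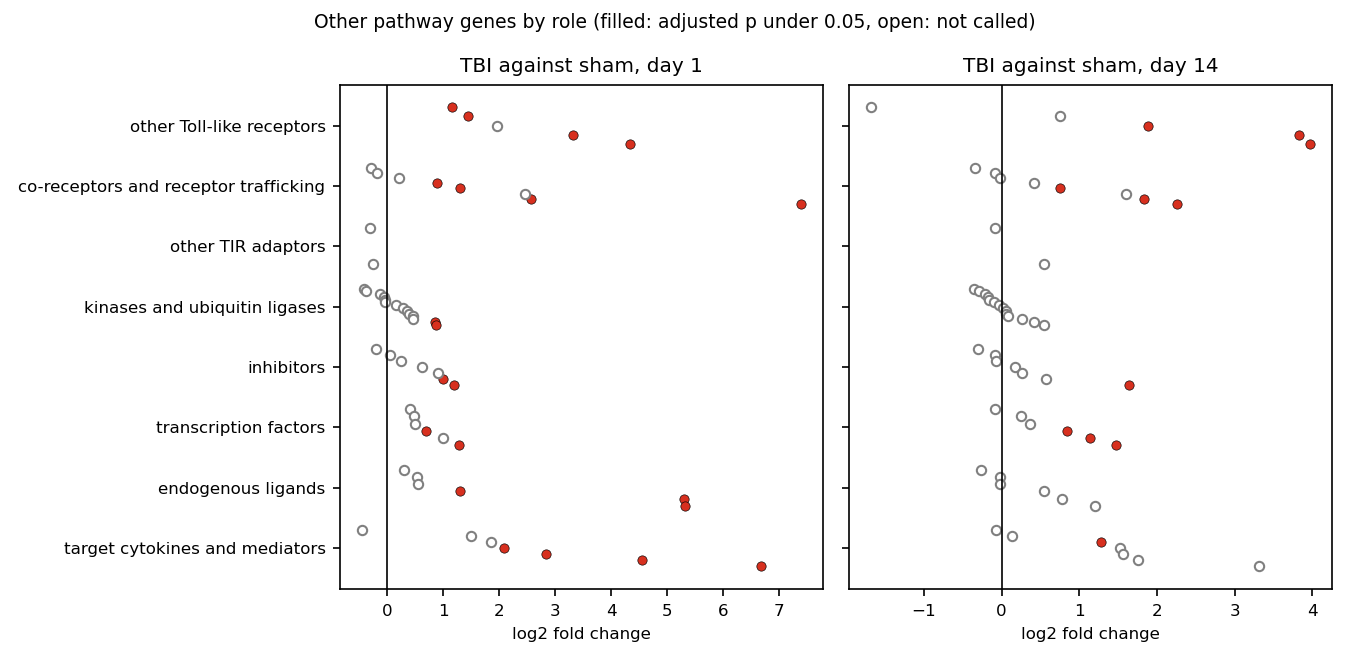
Fitted log2 fold change (TBI against sham) of 55 other pathway genes at both days, by role, with DEGs filled. Folds of genes near 0 counts in sham, such as Il1b and Cd36 at day 1, depend on the prior count of the fit, and 0 of the 14 kinases and ubiquitin ligases were called at day 14.

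To show which genes had a course most like that of each gene, the root mean square difference between log2 CPM values, each centered on its own mean, was taken over the 14 rats. Tlr7 was near C1qc (0.33), a complement subunit of microglia, and for Tlr4 the nearest genes were Fyb (0.35) and Cd53 (0.40). For Tlr3 they were Sall1 (0.27), a transcription factor known from microglia, and Arhgap24 (0.28). For Tlr2 they were RT1-CE10 (0.27), an MHC class I gene, and Cmtm3 (0.27). Tlr1 was nearest to Trim47 (0.31) and Zc3h12d (0.35), Myd88 to Arid5a (0.19) and Litaf (0.20), and Ly96 to Csk and Samd4a (both 0.22). Cd14, with the largest spread of the 9 genes (SD 2.34 over the 14 rats), had Sdc1 (0.54) and Hspb1 (0.56) nearest. Tlr9, with its low counts, was near Cartpt (0.49). These distances are not scaled to the spread of a gene (SD 0.44 for Ly96 and 0.83 for Myd88). They therefore do not rank the genes by how closely a neighbor follows them. Among the 9 genes themselves the nearest pair was Tlr7 and Myd88 (0.46), and the gene of this group nearest to Cd14 was Tlr1, at 1.30.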

How the data were processed

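RNA-seq libraries of 14 rats were used, grouped by their labels. The authors aligned single-end reads of stranded mRNA libraries to rn5 with STAR 2.4.2a and took gene counts from featureCounts 1.5.0 with the UCSC annotation. The deposited values are raw counts per gene, without normalization. The strand setting of the counting is not given in the sources used here, so overlapping and antisense genes cannot be told apart.

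The tests were run with edgeR 4.0.16 under R 4.3.3: library sizes were scaled by TMM, low genes were dropped with the default filter, and 1 quasi-likelihood model took the 4 groups of 14 rats together, two-sided, with Benjamini-Hochberg adjustment over 12875 genes. Log2 CPM used a prior count of 2. The method was tested on simulated data. Alternatives were limma-voom (limma 3.58.1), DESeq2 1.42.0, other factors, filters, samples and baselines, a replicate block, a choroid plexus score as covariate, and each rat left out. The run without the 3 libraries high in choroid plexus markers, and the alternatives for the pathway lists, were chosen after seeing the data.

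The genes and all lists were chosen with earlier results of these data known. Named besides the 9 genes are the 2 nearest to each and, per list and day, up to 3 DEGs with the largest change and a mean log2 CPM above 0. Some genes that this rule covers are not reported here. Replicates of a group differed by more than counting noise (chi-squared per degree of freedom 12.9 to 168). Reads carry no molecular identifiers. The H3K4me3 peak lists were not used, because their positions could not be assigned to genes. Tlr13, Tirap, Ticam1, Tab3, Tnfaip3 and Rel were not analyzed here. Tlr11, Tlr12, Hmgb1, Il6, Il12b and Ifnb1 were not tested, for low counts. Promoter sequences are RefSeq's (GRCr8).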

Additional observations from a re-analysis of the deposited data

Results flagged for a closer look

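Groups whose TBI effect differed between the days were looked for among the 28 named genes of the list and its pathway, with the edgeR test of the difference itself, and 5 passed, 4 with the larger effect at day 1 and 1 at day 14, beside 2.24% and 1.44% of all tested genes. The pathway genes among the 28 were named for a large change at one of the days, which bears on this count. The effect at day 1 minus that at day 14 was 2.57 for Tlr1 (edgeR adjusted p = 0.0146), 3.61 for Cd14 (edgeR adjusted p = 0.00333), 4.11 for S100a9 (edgeR adjusted p = 0.021) and 2.69 for Tnf (edgeR adjusted p = 0.0122) on the log2 scale. For Tlr3 it was −1.68 (edgeR adjusted p = 0.0375), with the larger effect at day 14. The differences for Tlr1 and Tlr3 missed the threshold in some alternatives. Among the groups of 4 rats, 27 sets of log2 CPM values of the 9 genes were searched for a rat far from the other 3, and 0 were found by Dixon's criterion.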

How the results depend on the processing

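At day 1, Cd14, Tlr1 and Myd88 remained DEGs in all alternatives in which they were tested. At day 14 this held for Cd14, Tlr2, Tlr4, Tlr7 and Myd88, while Tlr3 missed the threshold with all 6 sham rats as 1 group (1.07, edgeR adjusted p = 0.0543). Leaving out 1 rat at a time gave 3 to 6 of the 9 genes higher at day 1, with 3 without sham day 1 replicate 2, and 8 to 23 pathway genes, with 8 without that same rat. Fits left with 1 sham day 1 rat assume that it varies like the other groups. The same fits gave 0 to 1 pathway genes lower at day 1 (1 without TBI day 1 replicate 1) and 0 to 1 at day 14 (1 without sham day 14 replicate 3), 1 to 3 of the 9 genes with a larger effect at day 1 (3 without TBI day 1 replicate 4, with Myd88, as under DESeq2) and 0 to 1 with a larger effect at day 14, and 1 to 2 higher and 3 to 5 lower in TBI day 14 than in TBI day 1. Between the sham groups they gave 0 to 1 higher, with 1 (Tlr3) without sham day 1 replicate 2, TBI day 1 replicate 1, 2 or 4, or TBI day 14 replicate 4. With the groups compared alone in the fit, 13 pathway genes were higher at day 1 and 17 at day 14 (4.28% and 7.08% of all tested genes), 1 of the 9 genes was higher in TBI day 14 than in TBI day 1, and 1 differed between the sham groups. With sham day 14 as the baseline 5 pathway genes were lower at day 1, beside 21% of all tested genes. With all 6 sham rats 2 were lower, beside 16%. DESeq2 gave 1 pathway gene lower at day 14 (0.924% of all tested genes) and 1 of the 9 genes higher in sham day 1 (13.4%). For the difference between the days, 1 of the 9 genes was called with the larger effect at day 1 under limma-voom, the choroid plexus covariate, without the 3 libraries high in choroid plexus markers and with at least 10 counts in every sample, a filter that leaves out Cd14, Tlr4 and Tlr9; under the first 3 of these 0 were called with the larger effect at day 14. That filter and the covariate each gave 1 gene higher in TBI day 14 than in TBI day 1. Without P2ry12 and Tmem119 among the microglial markers, 3 genes lay above and 2 below sham at day 1. Signs turned only for values that were not called in the fit reported. Tlr3 at day 1 was 0.73 against sham day 14, 0.33 against all 6 sham rats and 0.30 without the 3 libraries, and −0.62 to 0.31 when 1 rat was left out. Tlr9 at day 1 was −0.0012 with the block, −0.10 with the covariate, −0.68 and −0.45 with the other baselines, and −0.26 to 0.56 when 1 rat was left out. The difference between the days ranged from −0.055 to 0.88 for Tlr2, −0.59 to 0.015 for Tlr4 and −0.37 to 0.14 for Tlr7 when 1 rat was left out, and Cd14 in sham day 1 against sham day 14 was 0.14 with limma-voom, 0.13 with the block and −0.43 to 0.33 when 1 rat was left out. Replicate numbers do not pair the rats: deviations of rats with the same number correlated at −0.35 to 0.24, and 3 of 14 rats correlated best with their own number. With the replicate block, 1 of the 9 genes (Tlr3) was called between the sham groups, and the other counts over the 9 genes stayed within 1.5 times those reported. The cause of these changes was not tested. Tlr9, Tlr1 and the sham levels of Cd14 and Tlr4 rest on few counts, which limits what could be detected for them.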
